A study of Mus musculus with 12 samples.

Results

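The genes described are 9 complement components that hepatocytes make, namely C3, Cfb, Cfi, Hc (the mouse gene for component C5), C6, C8a, C8b, C8g and C9. They form a list of gene names whose rule uses no measured value, though it was chosen with earlier results of these data known. They are 9 of the 55414 gene identifiers in the table. All 9 passed the filter on low counts, which left 14919 genes for testing. RNA was sequenced from primary mouse hepatocytes of 4 groups with 3 libraries each: Hnf4a KO cells with MJ041, Hnf4a KO cells with DMSO vehicle, WT cells with MJ041 and WT cells with DMSO vehicle. MJ041 is a candidate ligand known here only by its code name, and the labels give no dose, treatment time, strain, age or sex, and not how the knockout was made. The series title sets the work in the context of HNF4A dysfunction in sepsis.

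Complement is a cascade of plasma proteins, most of which are secreted by the liver. C3 is the protein on which the activation routes converge. Its cleavage product binds factor B (Cfb) to form the convertase of the alternative pathway, and factor I (Cfi) is the protease that inactivates the deposited fragments. Cleavage of C5 starts the terminal stage, in which C5b, C6, C7, C8 and C9 assemble into the membrane attack complex. C8 is built from 3 chains encoded by separate genes, C8a, C8b and C8g, and C9 forms the pore. HNF4A is a nuclear receptor that maintains gene expression of the differentiated hepatocyte.

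The libraries held 16740761 to 17902832 counts. Hnf4a itself had 61.0, 67.8 and 66.3 CPM (counts scaled to a common library total) in KO cells with vehicle, against 121, 137 and 112 CPM in WT cells with vehicle. The KO level was 52.7% of the WT level, so reads of the gene remained in every library labelled KO, and counts over the whole gene do not show whether single exons were lost. Summed over 15 hepatocyte markers such as Alb and Ttr, KO libraries held 27067 to 31645 CPM and WT libraries held 58822 to 77707 CPM, so hepatocyte markers were present in all groups. With vehicle 10 of the 15 were lower and 1 higher in KO cells, and the part of this shift in the results on the 9 genes was not tested. The labels do not say that replicates came from separate animals, and the p-values therefore measure only the spread between these samples. In bulk RNA, fewer cells of a type and less RNA per cell cannot be told apart, and this holds for each result.

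Start-site sequences were at hand for 7 of the 9 members in a RefSeq table of build GRCm38.p6, as 250 bases before to 50 bases after the start. Those of the C8a and C8b genes, both on chromosome 4, and of C9 and C3 are shown because these genes moved in different directions in KO cells. They are chr4:104876349-104876648 on the minus strand for C8a, chr4:104766067-104766366 on the plus strand for C8b, chr15:6445096-6445395 on the plus strand for C9 and chr17:57228087-57228386 on the minus strand for C3. Each is written 5′ to 3′ along its gene, and capitals mark matches to the motifs named after the sequences.
C8a: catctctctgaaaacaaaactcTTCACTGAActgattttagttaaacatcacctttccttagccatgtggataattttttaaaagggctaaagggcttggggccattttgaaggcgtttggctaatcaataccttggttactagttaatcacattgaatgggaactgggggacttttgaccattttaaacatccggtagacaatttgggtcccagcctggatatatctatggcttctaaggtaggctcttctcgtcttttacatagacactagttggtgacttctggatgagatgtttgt
C8b: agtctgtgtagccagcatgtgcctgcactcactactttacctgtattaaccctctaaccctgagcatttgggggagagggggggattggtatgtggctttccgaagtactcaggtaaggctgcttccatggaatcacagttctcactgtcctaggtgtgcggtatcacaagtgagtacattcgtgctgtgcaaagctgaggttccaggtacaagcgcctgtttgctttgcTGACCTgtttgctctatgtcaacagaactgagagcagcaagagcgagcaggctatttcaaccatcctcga
C9: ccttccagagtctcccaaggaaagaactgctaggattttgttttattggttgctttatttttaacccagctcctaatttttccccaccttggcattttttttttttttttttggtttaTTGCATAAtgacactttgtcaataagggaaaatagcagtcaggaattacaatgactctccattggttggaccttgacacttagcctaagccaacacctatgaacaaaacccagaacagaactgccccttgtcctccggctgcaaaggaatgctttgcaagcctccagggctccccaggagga
C3: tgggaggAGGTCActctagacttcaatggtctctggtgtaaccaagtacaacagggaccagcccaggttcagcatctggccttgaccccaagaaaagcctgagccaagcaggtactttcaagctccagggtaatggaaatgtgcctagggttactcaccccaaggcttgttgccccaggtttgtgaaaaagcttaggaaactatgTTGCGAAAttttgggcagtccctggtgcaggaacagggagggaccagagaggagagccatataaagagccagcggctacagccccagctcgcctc

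Both strands of the 8 promoters of the 7 members were searched for 7 short motifs. CAAAGTNCA, letters of the HNF4A site, was in none of the 8, and 1.41% of the 32851 promoters in the table held it. The nuclear receptor motif AGGTCA, which 16.3% of all promoters held, was in C3 from position -243, in C6 from position -40 and, on the reverse strand, in C8b from position -20 relative to the start. The C/EBP letters TTGCNNAA (10.8% of all promoters) were in C3 from position -45 and in C9 from position -132. C8a held the STAT letters TTCNNNGAA (8.3% of all promoters) from position -228, and Hc held the HNF1 letters GTTAATNAT (0.801%) on the reverse strand from position -77. The NF-kB letters GGNNTTTCC (5.82%) and the IRF letters GAAANNGAA (8.56%) were in none of the 8, and neither C8g start held any of the 7 motifs. These matches describe letters in short windows and say nothing of binding.

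The comparison of KO with WT cells asked how the components differed in cells labelled Hnf4a KO. With vehicle, C8a, C8g and C9 stood at 1.97%, 1.96% and 2.74% of their WT levels and Cfi at 14.8%, while C3 was 2.725-fold, C8b 1.496-fold and Hc 1.23-fold higher. In all, 7 of the 9 members passed the test, 3 of them higher and 4 lower in KO cells, and Cfb and C6 did not pass (edgeR's quasi-likelihood test on all 12 libraries, adjusted p below 0.05 after Benjamini-Hochberg correction over all tested genes). Of all tested genes 54.5% passed, 27.5% higher and 26.9% lower, so calls in either direction were common. KO and WT libraries did not overlap for 63.1% of all tested genes with vehicle and 59.2% with MJ041. Groups that lie apart, as given for single members below, were thus common too. The 4 members that were lower all fell at least 2-fold, as 6.15% of all tested genes did, and 1 of the members that were higher, C3, rose at least 2-fold, as 9.03% of all tested genes did. The median log2 fold change of the 9 members was -0.27, against -0.0020 over all tested genes. With MJ041 in both genotypes, 6 of the 9 members passed, C3 and C8b higher and the same 4 lower, where 54.4% of all tested genes passed, 26.8% higher and 27.6% lower.

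**Figure D1:**
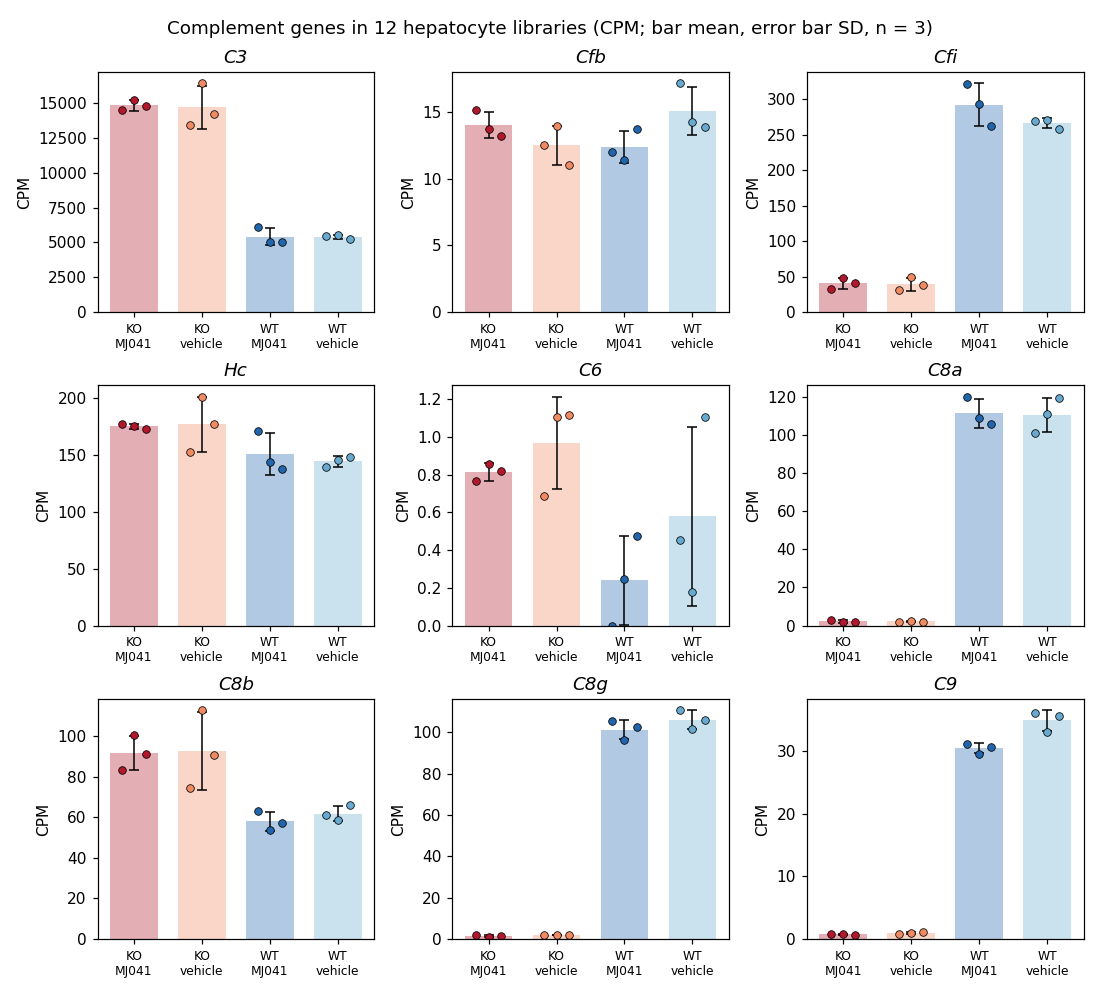
CPM of each of the 9 members, with 1 panel per gene, 1 point per library and the mean with its SD for each of the 4 groups. C8a, C8g, C9 and Cfi are low in both KO groups, C3 and C8b are high in both KO groups, and MJ041 and vehicle groups of a genotype lie close together.

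C3 (ENSMUSG00000024164), on chromosome 17, was the most abundant of the 9 in every library. It had 13445, 16441 and 14229.8 CPM in KO cells with vehicle, against 5448, 5504 and 5238 CPM in WT cells with vehicle. The groups did not overlap, and the highest of the KO libraries was replicate 2. The log2 fold change was 1.45 ± 0.0998 (SE, n = 3 libraries per group) with an adjusted p of 1.51e-07 by edgeR's quasi-likelihood test. With MJ041, C3 had 14525, 15254 and 14785 CPM in KO cells, against 6145, 5045 and 5068 CPM in WT cells. The groups again lay apart, with a log2 fold change of 1.46 ± 0.0998 and an edgeR adjusted p of 1.38e-07.

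C3 carried most of the reads of the 9 genes and set their sum. The 9 members together took 1.40% to 1.67% of a library's counts in KO cells and 0.554% to 0.654% in WT cells. C3 was 97.7% to 98.0% of the members' counts in KO libraries and 87.3% to 88.2% in WT libraries. Without C3 and the other early components the direction of the sum was the opposite, since the 6 terminal members (Hc, C6, C8a, C8b, C8g and C9) summed to 232 to 320 CPM in KO libraries and 432 to 491 CPM in WT libraries.

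Cfb (ENSMUSG00000090231), the partner of C3 in the alternative pathway convertase and also on chromosome 17, did not pass the test. It had 12.6, 13.9 and 11.03 CPM in KO cells with vehicle, against 17.2, 14.3 and 13.8 CPM in WT cells with vehicle. The groups overlapped, and the log2 fold change of -0.27 ± 0.12 had an edgeR adjusted p of 0.0722. This turned on single libraries, since the gene passed without replicate 2 of KO cells with vehicle (log2 fold change -0.35, edgeR adjusted p 0.0397) and without replicate 3 of WT cells with vehicle (-0.36, 0.0441), and stood at an adjusted p of 0.05 without replicate 2 of WT cells with MJ041. With MJ041 the sign was the other, at 0.18 ± 0.121 with an adjusted p of 0.225, also short of the threshold. In the annotation at hand, 2246 of the 2825 exonic bases of Cfb (79.5%) are shared on the same strand with the transcript Gm20547, which had 0 counts in every library. How reads in shared exons were counted is not given in the sources used here, so the level of Cfb may be understated.

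Cfi (ENSMUSG00000058952), on chromosome 3, encodes the protease that inactivates C3 fragments, and it fell. It had 31.1, 49.4 and 37.5 CPM in KO cells with vehicle, against 269.8, 270.4 and 258 CPM in WT cells with vehicle. All KO libraries lay far below all WT libraries, with a log2 fold change of -2.76 ± 0.158 (SE, n = 3) and an edgeR adjusted p of 2.72e-08. With MJ041 it had 32.6, 48.4 and 40.5 CPM in KO cells, against 322, 293 and 262 CPM in WT cells, a log2 fold change of -2.85 ± 0.158 and an edgeR adjusted p of 1.97e-08. In both KO groups replicate 2 was the highest library for Cfi.

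The 3 genes of the C8 protein did not move together. C8a (ENSMUSG00000035031) and C8b (ENSMUSG00000029656) encode the alpha and beta chains, which belong to the same protein family as C6 and C9, and C8g (ENSMUSG00000015083), on chromosome 2, encodes the gamma chain, a lipocalin. C8a had 2.00, 2.38 and 2.12 CPM in KO cells with vehicle, or 35, 41 and 38 counts, against 101, 111 and 119 CPM in WT cells with vehicle. C8g had 2.17, 2.09 and 1.95 CPM in KO cells with vehicle, or 38, 36 and 35 counts, against 111, 102 and 106 CPM in WT cells with vehicle. For both genes the KO and WT libraries lay wide apart, and the log2 fold changes were -5.67 ± 0.128 for C8a and -5.68 ± 0.107 for C8g, with edgeR adjusted p-values of 5.21e-12 and 1.22e-12 (n = 3 per group). By p-value C8g stood at place 4 and C8a at place 9 among all tested genes in this comparison.

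C8b went the other way. It had 74.3, 113 and 90.5 CPM in KO cells with vehicle, against 61.0, 58.5 and 66.0 CPM in WT cells with vehicle. The groups did not overlap, though the lowest KO library was near the highest WT library, and the log2 fold change was 0.58 ± 0.125 with an edgeR adjusted p of 0.00154. With MJ041 the C8b log2 fold change was 0.66 ± 0.125 with an edgeR adjusted p of 0.000622, and the 3 KO libraries (83.5, 101 and 91.1 CPM) again lay above the 3 WT libraries (63.2, 53.8 and 57.0 CPM). C8a with MJ041 had 2.76, 1.66 and 1.99 CPM in KO cells, against 119.9, 109 and 105 CPM in WT cells, a log2 fold change of -5.70 ± 0.129. C8g with MJ041 had 1.82, 1.03 and 1.52 CPM in KO cells, against 105, 96.2 and 102 CPM in WT cells, a log2 fold change of -6.12 ± 0.113. Both passed, with edgeR adjusted p-values of 5.19e-12 for C8a and 9.89e-13 for C8g.

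Per kilobase of exon, the balance of the C8 messages differed between genotypes. In KO cells with vehicle, C8a stood at 0.0188, 0.0148 and 0.0164 of the C8b level, against 1.16, 1.32 and 1.26 of it in WT cells with vehicle. C8g stood at 0.0497, 0.0316 and 0.0367 of the C8b level in KO cells with vehicle, against 3.09, 2.96 and 2.74 of it in WT cells with vehicle. So C8b was the lowest of the 3 chains per kilobase in WT cells and the highest in KO cells, in every library of either treatment. These are ratios of messages, and no protein was measured.

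**Figure D2:**
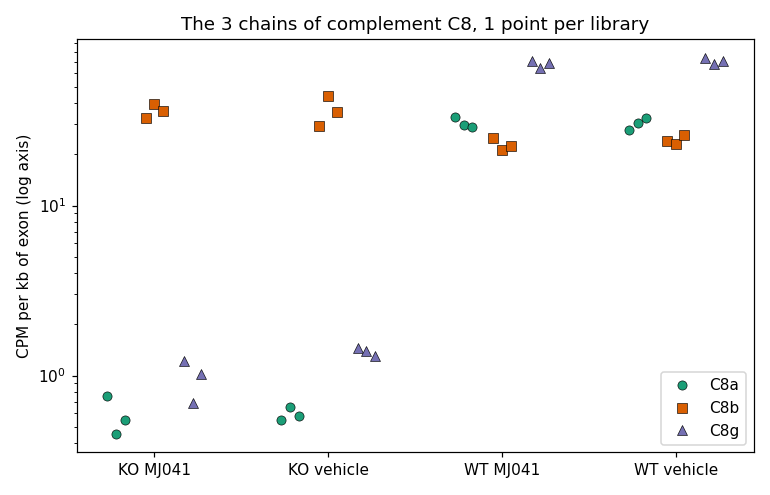
CPM per kilobase of exon of the chain genes C8a, C8b and C8g, on a log axis, with 1 point per library in the 4 groups. The C8a to C8b ratio lies between 0.0115 and 0.0232 in KO libraries and between 1.16 and 1.41 in WT libraries.

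C9 (ENSMUSG00000022149), the pore-forming component, lies on chromosome 15 as does C6, and fell with C8a and C8g. It had 0.80, 0.93 and 1.11 CPM in KO cells with vehicle, or 14, 16 and 20 counts, against 36.1, 33.0 and 35.5 CPM in WT cells with vehicle. With MJ041 it had 0.76, 0.74 and 0.70 CPM in KO cells, or 13, 13 and 12 counts, against 31.1, 29.5 and 30.6 CPM in WT cells. No KO library came near a WT library, and the log2 fold changes were -5.19 ± 0.11 with vehicle and -5.36 ± 0.116 with MJ041, with edgeR adjusted p-values of 3.02e-12 and 3.29e-12 (n = 3 per group). All KO libraries held more than the 3 counts that a count of 0 would allow, so C9 reads remained, as did those of C8a and C8g. The SEs of C9, C8a and C8g in KO against WT are too small, since they lie below the error of counting so few reads in KO cells.

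Hc (ENSMUSG00000026874), on chromosome 2, encodes C5, which is cleaved to start the terminal stage. It had 152, 201 and 177 CPM in KO cells with vehicle, against 139, 146 and 148 CPM in WT cells with vehicle. The groups did not overlap, but the lowest KO library was close to the highest WT library, and the log2 fold change was 0.29 ± 0.0947 with an edgeR adjusted p of 0.0186. The call was lost when single libraries were left out, at adjusted p-values of 0.0948 without replicate 2 and 0.072 without replicate 3 of KO cells with vehicle, and 0.0682 without replicate 1 and 0.0688 without replicate 2 of WT cells with vehicle. Without replicate 2 of KO cells with vehicle the log2 fold change was 0.19. With MJ041, Hc had 177, 175 and 173 CPM in KO cells, against 171, 143 and 137 CPM in WT cells, and the log2 fold change of 0.21 ± 0.0947 did not pass (edgeR adjusted p 0.0718). It passed with scaling by library totals (0.28, edgeR adjusted p 0.0108) or upper quartiles (0.31, 0.00967), without the low-count filter (0.0223), without both replicates 1 and 2 of WT cells with MJ041 (0.34, 0.0395), and without replicate 1 of WT cells with MJ041 (0.31, 0.0135), replicate 1 of KO cells with vehicle (0.041) or replicate 2 of KO cells with vehicle (0.0407).

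**Figure D3:**
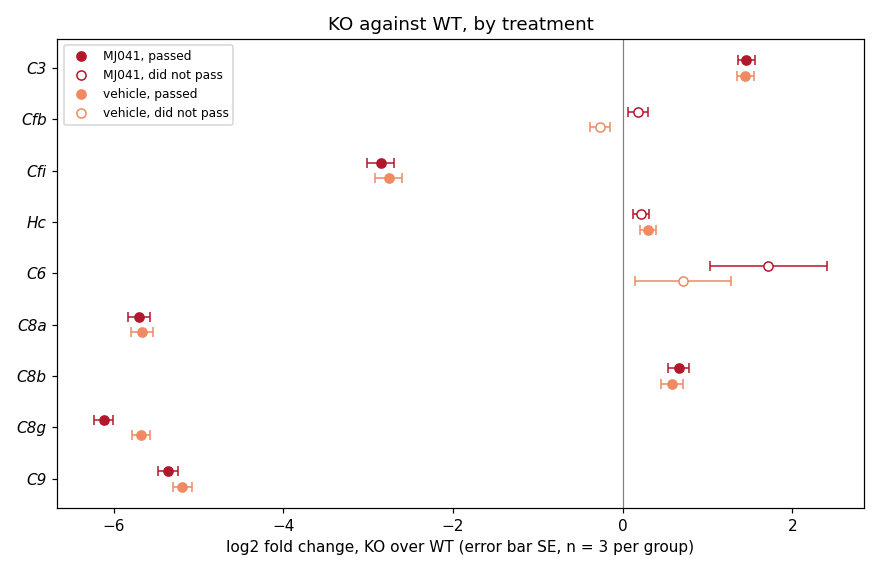
Log2 fold change of KO against WT for the 9 members, with vehicle and with MJ041, with bars for the SE. C8a, C8g and C9 lie below -5, Cfi near -2.8 and C3 near 1.45. The 95% intervals of Cfb and C6 with vehicle, which are not drawn, include 0. That of Cfb ends at 0.0050, while its unadjusted p by edgeR's test was 0.0419.

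C6 (ENSMUSG00000022181), which joins C5b as the next step of assembly, was close to the limit of detection. It had 12, 19 and 20 counts in KO cells with vehicle, against 8, 3 and 20 counts in WT cells with vehicle, which is 0.68, 1.10 and 1.11 CPM against 0.45, 0.18 and 1.10 CPM. The groups overlapped, and the log2 fold change of 0.72 ± 0.566 had an edgeR adjusted p of 0.306. With MJ041 it had 13, 15 and 14 counts in KO cells, against 0, 4 and 8 counts in WT cells. Those groups did not overlap, and the log2 fold change of 1.72 ± 0.689 had an edgeR adjusted p of 0.0505, just short of the threshold, and C6 passed with DESeq2 (adjusted p 0.0469) and with voom (0.0261). The count of 0 allows a level of up to 0.174 CPM in that library, taken on its raw count total. Such limits cover counting error only.

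The summed level of 15 markers of Kupffer cells, the macrophages of the liver, is given beside C6. It came to 494 to 523 CPM in KO cells with MJ041 and 479 to 533 CPM in KO cells with vehicle, and to 194 to 397 CPM in WT cells with MJ041 and 265 to 532 CPM in WT cells with vehicle. The marker Mpeg1 carried much of this sum, with means of 281 CPM in both KO groups, 78.9 CPM in WT cells with MJ041 and 131 CPM in WT cells with vehicle. The other 14 summed to means of 231 CPM in KO cells with MJ041 and 198 CPM in WT cells with MJ041, and of 217 CPM in KO cells with vehicle and 243 CPM in WT cells with vehicle, so with vehicle their direction was the opposite of that of the whole sum. Of the 14 tested markers 2 were higher, 1 lower and 11 not called in KO cells with vehicle, and Cd163 was at 0 in all groups but KO cells with vehicle. The WT library with vehicle that had 20 C6 counts also had the highest sum in its group, with or without Mpeg1, and the WT library with MJ041 that had 0 C6 counts had the lowest. With the mean of Kupffer, endothelial and stellate markers as a covariate, the C6 log2 fold change of KO against WT with MJ041 was 0.60 (edgeR adjusted p 0.338), and without replicates 1 and 2 of WT cells with MJ041 it was 0.77 (0.44). Leaving out single libraries moved the value without that covariate to between 1.15 (adjusted p 0.136), without replicate 1 of WT cells with MJ041, and 2.65 (adjusted p 0.0198), without replicate 3 of the same group. C6 also passed without replicate 2 (1.70, edgeR adjusted p 0.0376) or replicate 3 (1.69, 0.0315) of WT cells with vehicle. Those libraries enter this comparison through shared steps such as the filter, the scaling and the estimate of spread.

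**Figure D4:**
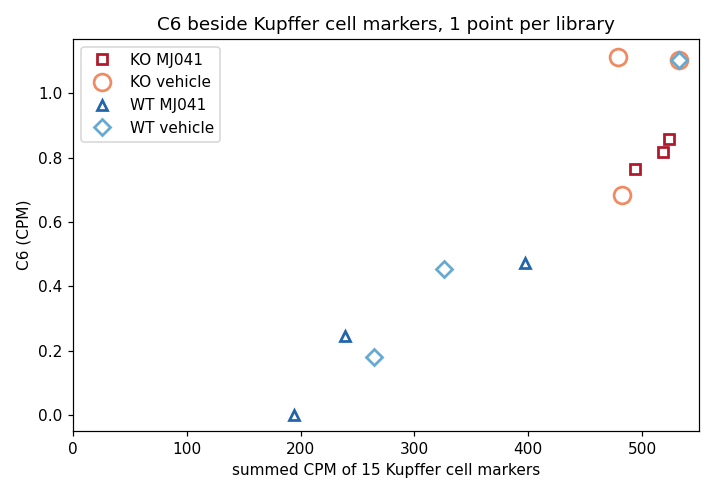
C6 in CPM (vertical axis) against the summed CPM of 15 Kupffer cell markers (horizontal axis), 1 point per library with a symbol for each of the 4 groups. The library at 0 CPM of C6 has the lowest marker sum, 194 CPM, and the libraries near 1.10 CPM have sums of 479 to 533 CPM. Other KO libraries have like sums with less C6. Replicate 1 with vehicle has 0.68 CPM at a sum of 483 CPM, and those with MJ041 have 0.76 to 0.86 CPM at 494 to 523 CPM.

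The order of the messages per kilobase of exon differed between genotypes. In KO cells with vehicle the means were 2859 CPM per kilobase for C3, 36.4 for C8b, 28.2 for Hc, 17.7 for Cfi, 4.43 for Cfb, 1.39 for C8g, 0.595 for C8a, 0.371 for C9 and 0.272 for C6. In WT cells with vehicle they were 1049 CPM per kilobase for C3, 119.9 for Cfi, 71.1 for C8g, 30.3 for C8a, 24.3 for C8b, 23.0 for Hc, 13.6 for C9, 5.34 for Cfb and 0.163 for C6. Cfi thus came next after C3 in WT cells, and after C3, C8b and Hc in KO cells. The library ranges overlapped for the neighbours C8b and Hc in both genotypes with vehicle and for C9 and C6 in KO cells with vehicle, so these pairs have no settled order. The place of Cfb is not settled either. Its value is per kilobase of all its exonic bases, of which 79.5% are shared with Gm20547, so it may be understated. As the last terminal component set against the first, C9 stood at 0.0129, 0.0113 and 0.0154 of the Hc level in KO cells with vehicle, against 0.636, 0.556 and 0.588 of it in WT cells with vehicle.

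The comparisons of MJ041 with vehicle asked whether the compound changed the components in either genotype. In WT cells none of the 9 members passed edgeR's quasi-likelihood test at an adjusted p below 0.05, where 2.21% of all tested genes did, and DESeq2 and voom also called none of the 9. At an unadjusted p below 0.05 by edgeR's test there were 2, Cfb and C9. Of the 14919 tested genes 3219 had such a p-value, so it was common and not particular to the members. Cfb and C9 each had all MJ041 libraries below the vehicle libraries, as 9.2% of all tested genes had. Cfb had 11.98, 11.4 and 13.7 CPM in WT cells with MJ041, against 17.2, 14.3 and 13.8 CPM in WT cells with vehicle, a log2 fold change of -0.29 ± 0.12 (edgeR p 0.0331, adjusted p 0.192). C9 had 31.1, 29.5 and 30.6 CPM in WT cells with MJ041, against 36.1, 33.0 and 35.5 CPM in WT cells with vehicle, a log2 fold change of -0.20 ± 0.0752 (edgeR p 0.0214, adjusted p 0.155). Neither passed the correction.

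The intervals show how large an MJ041 effect in WT cells these libraries leave room for. The 95% interval of the log2 fold change was -0.22 to 0.23 for C3, -0.16 to 0.28 for Hc, -0.19 to 0.21 for C8a, -0.38 to 0.20 for C8b, -0.24 to 0.10 for C8g and -0.19 to 0.47 for Cfi. For C6 it was -2.92 to 0.42, too wide to place the gene. Hnf4a had 166, 178 and 142 CPM in WT cells with MJ041, against 121, 137 and 112 CPM in WT cells with vehicle, a log2 fold change of 0.39 ± 0.101 with an edgeR adjusted p of 0.0622. The Hnf4a groups did not overlap, and the gene passed with DESeq2 (adjusted p 0.0131), without the low-count filter (7.29e-05), without replicate 3 of WT cells with MJ041 (0.48, 0.00849) and without replicate 2 of WT cells with vehicle (0.44, 0.0406). In the WT cells with MJ041, replicate 1 was the highest of its group for 7 of the 9 members, a count for which no share over all genes was computed. Replicates 1 and 2 of this group had the lowest sums of 15 stellate cell markers, 95.5 and 102 CPM, beside 151.8 to 216 CPM in the other 10 libraries.

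In KO cells MJ041 changed no member past the threshold with edgeR, DESeq2 or voom, nor did any of the 14919 genes pass edgeR's test (0% called), although 414 had an unadjusted p below 0.05 and DESeq2 called 1. C8g was the only member with an unadjusted p below 0.05. It had 1.82, 1.03 and 1.52 CPM in KO cells with MJ041, against 2.17, 2.09 and 1.95 CPM in KO cells with vehicle, a log2 fold change of -0.51 ± 0.173 with an interval of -0.91 to -0.11 (edgeR p 0.0176, adjusted p 1). C9 had 0.76, 0.74 and 0.70 CPM in KO cells with MJ041, against 0.80, 0.93 and 1.11 CPM in KO cells with vehicle, with a log2 fold change of -0.36 ± 0.179 (edgeR p 0.236, adjusted p 1). For both genes the MJ041 libraries lay below the vehicle libraries, as for 4.36% of all tested genes. Both rest on few counts, between 12 and 38 per library. Their SEs lie below the error of counting so few reads, so these SEs and intervals are too narrow. For C9 the SE and the p-value do not match. The intervals of C3 (-0.21 to 0.24), C8b (-0.30 to 0.27), Hc (-0.23 to 0.20) and Cfi (-0.32 to 0.41) included 0.

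**Figure D5:**
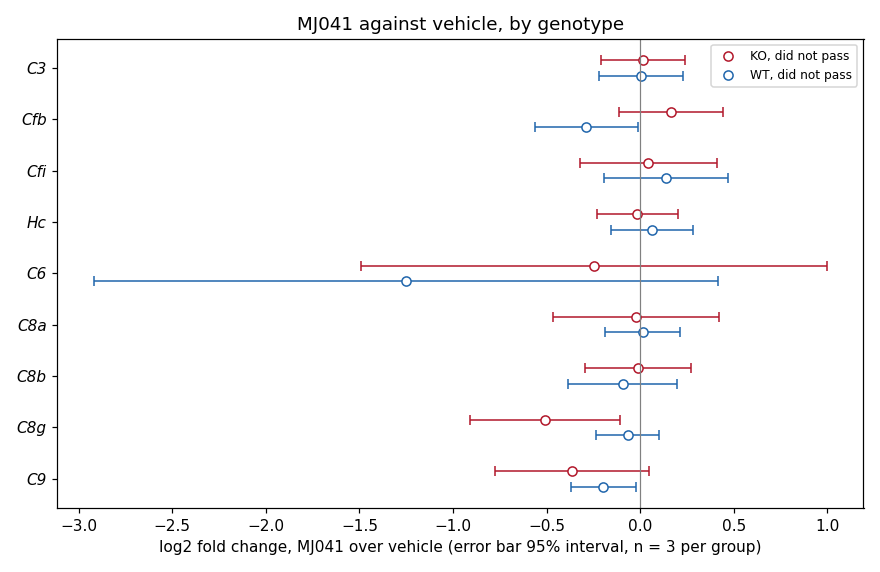
Log2 fold change of MJ041 against vehicle for the 9 members in KO cells and in WT cells, with bars for the 95% interval. Most values lie near 0, C8g and C9 in KO cells and Cfb and C9 in WT cells lie below it, and C6 has the widest intervals.

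The interaction, the MJ041 log2 fold change in KO cells minus that in WT cells, asked whether the response to MJ041 differed between genotypes. None of the 9 members and none of the 14919 genes passed edgeR's test at an adjusted p below 0.05 (0% called), and 1980 genes had an unadjusted p below 0.05 and DESeq2 called 218. Of the members, 2 were among these, Cfb at 0.45 ± 0.17 (edgeR p 0.0201, adjusted p 0.271) and C8g at -0.44 ± 0.188 (edgeR p 0.0414, adjusted p 0.35). DESeq2 and voom called none of the 9 members. C3 had an interaction of 0.0086 with an interval of -0.31 to 0.33, and C8b one of 0.081 with an interval of -0.33 to 0.49.

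Within groups, the higher and lower libraries of several members were the same ones. In KO cells with vehicle, replicate 2 was the highest library for 6 of the 9 members. The share of all tested genes for which it was highest was not computed, so the count is not particular to the members. After the group mean of log2 CPM was subtracted, the 12 libraries gave a Pearson r of 0.898 between C3 and Hc, 0.867 between C8b and Cfi, 0.81 between Hc and C8b and 0.77 between C8a and C8g, as a description across libraries that share depth and scaling. So C8b, which parted from C8a and C8g between genotypes, varied within groups with C3, Hc and Cfi.

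Of other genes averaging 5 CPM or more, those most like each member over the 12 libraries by Pearson r of log2 CPM were Ces1c (0.9954) and Gstm2 (0.9952) for C3, Serpina3k and F12 (0.9984 each) for C8a, Arhgap21 (0.9985) and Ugt2a3 (0.9982) for C8g, Ces3b (0.9994) and Slc12a4 (0.9985) for C9, and Fth1 (0.9985) and Vtn (0.9982) for Cfi. For C8b they were Nfe2l2 (0.9773) and Mrpl14 (0.9721), for Hc Ang (0.9339) and Gaa (0.9327), and for Cfb Mrm2 (0.8751) and Rnpep (0.8401). For C6 they were Cd5l (0.9658), one of the Kupffer cell markers, and Cd55 (0.9591). These values are high where the genotype difference of a member is wide, since all 12 libraries then fall into 2 clusters.

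The other complement genes gave the setting for the 9 members. A list of 45 further genes of the system held 38 that were tested, of which 13 were higher, 9 lower and 16 not called in KO cells with vehicle, with a median log2 fold change of 0.14. The share called is near the 54.5% among all tested genes. C7, the terminal component between C6 and C8, and Cfd, the protease that cleaves factor B, had 0 counts in all 12 libraries. This allows a level of up to 0.168 to 0.179 CPM in a library, taken on raw count totals. Among the terminal genes, C6 and C7 were near or under the limit of detection in all 4 groups. With vehicle all 9 tested soluble regulators were called, 4 higher and 5 lower. With MJ041 in both genotypes 2 were higher, 4 lower and 3 not called, where 54.4% of all tested genes were called. Vtn (vitronectin, which blocks insertion of the terminal complex) averaged 65.3 ± 11.7 CPM in KO cells with vehicle and 591 ± 14.2 CPM in WT cells with vehicle (SD, n = 3). Its log2 fold change with vehicle was -3.18 (edgeR adjusted p 6.68e-10). C4bp, a cofactor of factor I, stood at -1.03 (3.62e-05) and Cfhr2, a factor H-related gene, at 0.84 (1.35e-05).

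Of 14 genes that start the classical and lectin routes, 4 were higher and 3 lower, and of 4 other genes of convertases 2 were higher, in KO cells with vehicle, counts to be read against the 54.5% of all tested genes that were called. Mbl2, a mannose-binding lectin, averaged 13.7 ± 0.975 CPM in KO cells with vehicle and 183 ± 2.05 CPM in WT cells with vehicle (SD, n = 3), a log2 fold change of -3.74 (edgeR adjusted p 1.32e-10), and its relative Mbl1 stood at -1.50 (3.26e-06). C2, the counterpart of Cfb in the classical pathway, averaged 28.7 ± 0.932 CPM in KO cells with vehicle and 19.3 ± 1.77 CPM in WT cells with vehicle, a log2 fold change of 0.57 (0.000136), and like Cfb it shares exons with Gm20547. C4b stood at 0.49 (0.0101) and C1s2 at 2.20 (0.000346), the C1s2 value on 52 counts over KO and 11 over WT libraries, and both have near-identical copies with which reads may be split. Of 5 membrane regulators 2 were higher, Cd59a at 0.40 and Cd59b at 0.60, mouse paralogs of the gene that blocks C9 polymerisation. Of 6 receptors Vsig4 was higher (1.25) and Itgam lower (-1.59), both expressed by macrophages and both under 3 CPM in all 4 group means. The genes Cfp (0.35), Cd46 (0.38) and Itgb2 (-0.72) did not pass with vehicle. With MJ041 in both genotypes Cd59a (0.25) and Itgam (-0.18) did not pass, while Cfp (1.04) and Cd46 (0.80) were higher in KO cells. MJ041 changed 1 of the 38 in WT cells, C1rl (0.45, edgeR adjusted p 0.0446), where 2.21% of all tested genes were called, and none in KO cells. The call of C1rl was lost in the fit of only the WT groups, with the marker covariate, and without replicates 1 and 2 of WT cells with MJ041, where no gene was called.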

How the data were processed

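The authors deposited 1 table of raw counts per Ensembl gene and library, with no normalization applied. Per the labels, libraries were made with a stranded kit and read on an Element AVITI instrument. Trimming with Trimmomatic 0.34, alignment with STAR 2.7.10b to the mouse build mm39 and counting with featureCounts can be read from the submitters' processing notes, which list names only and add FastQC and DESeq2. The strand and multimapping settings of the counting and the annotation release are not given in the sources used here, so close paralogs and overlapping genes may share or lose reads.

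The counts were fitted in edgeR 4.0.16 under R 4.3.3, with DESeq2 1.42.0 and limma 3.58.1 for alternatives. The filter was filterByExpr (minimum count 10) and the scaling TMM. All 12 libraries entered 1 quasi-likelihood fit with a term for each of the 4 groups, from which 5 comparisons were drawn, each adjusted by Benjamini-Hochberg over 14919 genes with a threshold of 0.05. The standard error was taken as |log2 fold change| / sqrt(F), and a 95% interval uses t on 8 residual degrees of freedom. Such an interval can include 0 at an unadjusted p below 0.05, as in KO against WT for Cfb with vehicle and Hc with MJ041. For C8a, C8g and C9 in KO against WT, this standard error falls below the counting error of the few KO reads. Their intervals are therefore too narrow. The fit was tested on simulated data. Libraries within a group differed by more than sampling noise (chi-square per degree of freedom 4.39 to 14.6), so none was counted as a repeat. Symbols and exonic lengths come from an annotation of GRCm38, another build than the files', so it was used for names, lengths and overlaps only. A symbol was found for 52081 of 55414 identifiers. Promoter sequences come from RefSeq on GRCm38.p6.

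All 9 members and Hnf4a are named. In each list of other genes the 3 tested genes with the smallest adjusted p for KO against WT with vehicle are named. Some results on other genes are not reported here. The members and lists were chosen with earlier results of these data known. Alternatives tried were no low-count filter, 3 other scalings, DESeq2, voom, a fit of only the groups compared, the replicate number as a block, a marker covariate, and leaving out libraries.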

Additional observations from a re-analysis of the deposited data

How the results depend on the processing

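The calls of C3, C8a, C8b, C8g, C9 and Cfi between genotypes kept their direction and passed under every alternative and with each single library left out, with vehicle and with MJ041. With vehicle, the counts of members over the single libraries left out were 2 to 3 higher and 4 to 5 lower. With MJ041 they were 2 to 3 higher and 4 lower, and 4 members were higher without the low-count filter, with library totals or with upper-quartile factors, as Hc and C6 then passed. No member passed in the MJ041 comparisons or the interaction under any alternative. DESeq2 gave C6 no adjusted p for MJ041 in WT cells or for the interaction, C6 was filtered out of the fit of the WT groups only, and the interaction needs all groups.

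The count over all genes for MJ041 in WT cells depended on the fit. It was 329 with 177 higher and 152 lower, and it was 1667 without the low-count filter, 894 with DESeq2, 649 with the replicate block, and 0 with only the groups compared, with the marker covariate, or without replicates 1 and 2 of WT cells with MJ041, called both libraries here (unadjusted p below 0.05 for 2561, 1854 and 747 genes). Single libraries left out gave 0 to 2059 calls. Library totals gave 91 higher and 164 lower, and upper-quartile factors 105 higher and 171 lower. For MJ041 in KO cells the count was 15 without the filter and 1 with DESeq2, and for the interaction it was 886 without the filter, 218 with DESeq2 and 0 to 852 with single libraries left out. For KO against WT with MJ041, upper-quartile factors gave 4972 higher and 3343 lower, against 4005 and 4113. The cause was not tested.

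Values that never passed changed sign, all near 0 but the C6 interaction. For MJ041 in WT cells C3 was -0.0036 with DESeq2 or its size factors, -0.056 with library totals, -0.039 with upper-quartile factors, -0.022 with only the groups compared, -0.048 with the marker covariate and -0.089 without both libraries. C8a was -0.048, -0.032, -0.014, -0.020 and -0.062 in the last 5 of these, and Hc and Cfi were -0.067 and -0.020 without both libraries. For MJ041 in KO cells C8b was 0.0051 with voom. In the interaction C3 was -0.0080 without the filter, C8a was 0.027 with library totals, 0.014 with upper-quartile factors, 0.0045 with the covariate and 0.038 without both libraries, C6 was -0.073 with the covariate against 1.00 without it (0.15 to 1.94 with single libraries left out), and Hc and Cfi were 0.049 and 0.061 without both libraries. Single libraries left out gave ranges across 0 of -0.095 to 0.049 (C3), -0.049 to 0.052 (C8a) and -0.039 to 0.12 (Hc) for MJ041 in WT cells. For MJ041 in KO cells they gave -0.053 to 0.10 (C3), -0.25 to 0.12 (C8a), -0.15 to 0.15 (C8b), -0.12 to 0.086 (Hc), -0.11 to 0.24 (Cfi) and -0.049 to 0.13 (Hnf4a). For the interaction they gave -0.037 to 0.11 (C3), -0.24 to 0.14 (C8a), -0.035 to 0.25 (C8b), -0.15 to 0.023 (Hc) and -0.22 to 0.10 (Cfi).

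Libraries with the same replicate number correlated above 0.1 in all 3 pairs of no comparison (0.158, -0.051 and 0.092 in KO against WT with vehicle, 0.349, 0.458 and 0.039 in MJ041 against vehicle in KO cells, and -0.010, 0.203 and 0.499 in WT cells). The main fit treated them as unpaired, and a shared preparation within a genotype was not tested. The replicate block changed the call of C6 between genotypes with MJ041 (1.78, adjusted p 0.0322) and of Hnf4a with MJ041 in WT cells (0.39, 0.0219). In MJ041 against vehicle in KO cells every library correlated best with its own number, and in WT cells replicates 2 and 3 did. Depth limits C6, C8a, C8g and C9 in KO cells, which rest on under 50 counts a library.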

Other observations

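Genes of the acute-phase response and of the regulators that act on it were read beside the complement components. Of 20 acute-phase genes, 6 were higher, 8 lower and 6 not called in KO cells with vehicle (edgeR's quasi-likelihood test, adjusted p below 0.05), with a median log2 fold change of 0.097, and 54.5% of all tested genes were called. Apcs, which encodes serum amyloid P, averaged 12.7 ± 1.67 CPM in KO cells with vehicle and 73.6 ± 3.71 CPM in WT cells with vehicle (SD, n = 3), a log2 fold change of -2.54. Saa1 and Saa2, near-identical copies whose reads may be split, stood at -1.42 and -1.59. Among the 6 that were higher, Hp (haptoglobin) stood at 1.89, Orm3 at 1.55, Cp at 1.37, Lbp at 1.32, Itih3 at 1.13 and Lcn2 at 0.83, named after their values were seen. Acute-phase genes thus were called in both directions.

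Of 26 receptors and transcription factors of the inflammatory and hepatocyte programmes, 7 were higher, 17 lower and 2 not called in KO cells with vehicle, with a median log2 fold change of -0.40, where 27.5% of all tested genes were higher and 26.9% lower. Ifngr1, a chain of the interferon gamma receptor, averaged 237 ± 7.32 CPM in KO cells with vehicle and 51.8 ± 4.47 CPM in WT cells with vehicle (SD, n = 3), a log2 fold change of 2.20. Rela and Nfkb2, subunits of NF-kB, stood at -0.93 and -1.09.

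With MJ041 in WT cells, 2 of the 20 acute-phase genes were lower and none higher, Saa3 (-1.10, edgeR adjusted p 0.0426) and Serpina3n (-0.30, 0.0385), named after their values were seen, where 1.02% of all tested genes were lower. Both calls were lost in the fit of only the WT groups, with the marker covariate, and without replicates 1 and 2 of WT cells with MJ041, where no gene was called. Median log2 fold changes of cell type markers in the same comparison were -0.60 for Kupffer cells, -0.76 for endothelial cells and -0.43 for stellate cells, with no marker of these lists called.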
